A study of Mus musculus with 25 samples.

Results

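The 8 genes described here are Cytl1, Smoc1, Angptl7, Fmod, Comp, Chad, Wif1 and Cilp, which encode secreted or matrix proteins known from heart valve, cartilage and tendon, and they were followed in the myocardial mRNA of 25 mice. They were chosen from values measured in these same libraries. Cytl1, Smoc1 and Angptl7 stood among the genes that were 2-fold lower in obese mice given carnosine, and all 8 were high in single mice, WT HFHS replicate 4 first among them. Each gene's level was its TPM, a transcript's share of the library corrected for length, added up over the gene and scaled by 1 median-ratio factor per library (scaled TPM). All 8 were found among the 35969 genes with a transcript in the table, and all 8 were among the 11979 genes whose mean scaled TPM over the 25 mice was at least 1.

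All mice were male, came from a line kept by backcross to C57BL6/J and began their diet at 8 to 10 weeks of age, staying on it for 16 weeks. WT CNTL mice were wild-type littermates on a control diet. GPx4+/- CNTL mice had only 1 intact Gpx4 allele, the gene of an enzyme that detoxifies lipid peroxides, throughout the body. WT HFHS and GPx4+/- HFHS mice received a high fat high sucrose diet. WT HFHS + Carnosine mice received that diet and, from week 7, carnosine at 80 mM in the drinking water, and each of these 5 groups held 5 mice. The GPx4+/- mice given carnosine are not analysed here. RNA came from left ventricular tissue by the labels' extraction protocol, and the labels give neither the part of the ventricle taken nor which mice had received dextrose and which saline before death.

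Fibromodulin (Fmod), cartilage oligomeric matrix protein (Comp), chondroadherin (Chad) and cartilage intermediate layer protein (Cilp) are structural or collagen-binding proteins of dense connective tissue. Wnt inhibitory factor 1 (Wif1) binds Wnt ligands outside the cell, and SPARC-related modular calcium-binding protein 1 (Smoc1) modulates bone morphogenetic protein (BMP) signalling. Cytokine-like 1 (Cytl1) and angiopoietin-like 7 (Angptl7) are secreted factors found in cartilage and in ocular and other connective tissue. In the heart, dense matrix of this kind is found in the valves, their fibrous ring and the tendinous cords, whereas the bulk of the ventricle is muscle with a fine collagen network.

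The libraries carried the labelled genotype, since Gpx4 lay between 584 and 774 scaled TPM in the WT mice and between 249 and 384 in the GPx4+/- mice. All 8 ventricular muscle markers were present, and the summed level of these markers ranged from 43756 to 55740 scaled TPM. Atrial markers (Myl4, Myl7, Sln, Nppa, Bmp10) stood apart in 5 mice. Their sum was 4512 in WT CNTL replicate 3, 7246 and 1471 in GPx4+/- CNTL replicates 1 and 2, 2695 in GPx4+/- HFHS replicate 4 and 579 in WT HFHS + Carnosine replicate 2, against at most 276 in the other 20 mice. In WT HFHS replicate 4 the atrial sum was 103, but its smooth muscle sum (Myh11, Acta2, Tagln, Cnn1, Actg2, Lmod1) was 531, against at most 252 in any other mouse. In tissue RNA, fewer cells of a type and less RNA per cell cannot be told apart.

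Of the 21 cartilage genes, 8 had a mean under 0.1, among them the genes that define hyaline cartilage. Aggrecan (Acan) reached at most 0.420 scaled TPM in any mouse and Col2a1, the main cartilage collagen, at most 0.161, with 8 mice at 0. Matn1 was at 0 in 21 mice and Snorc in 24, and Sox9, the transcription factor that drives cartilage matrix genes, had a mean of 0.453. Other genes of the list were present, Prg4 with a mean of 10.5, Matn2 with 8.41 and Clec3a with 1.74. The genes are therefore called by their names here and not by a cell type, and no marker that is particular to valve cells was among the lists.

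**Figure D1:**
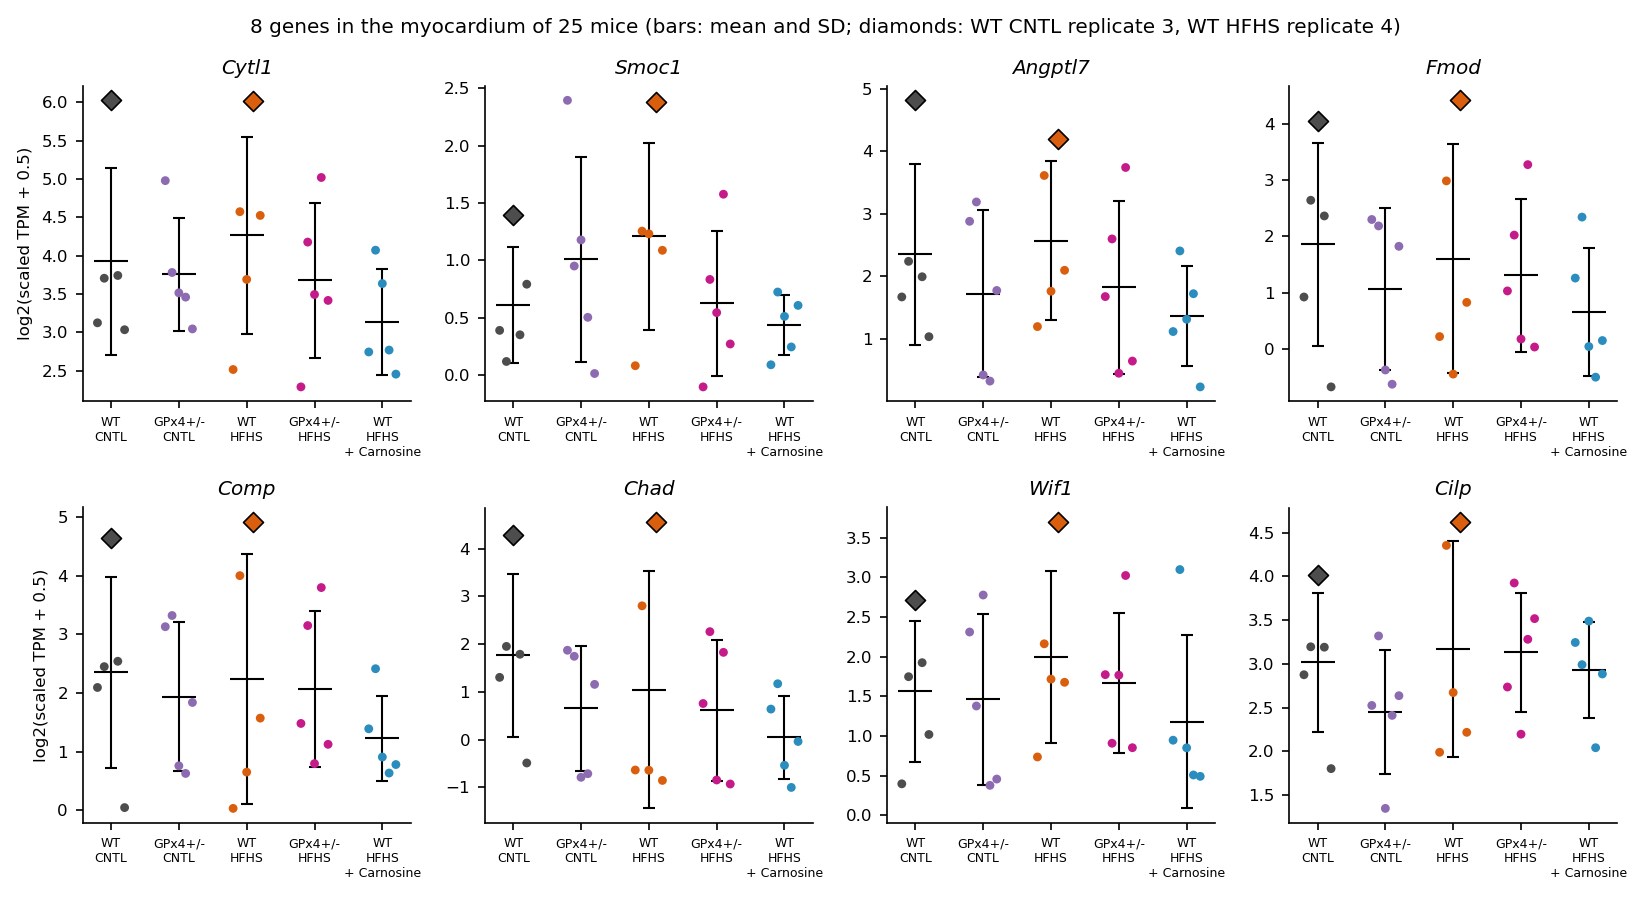
Level of each of the 8 genes in the 5 groups, as log2(scaled TPM + 0.5), with 1 point per mouse and bars for the mean and SD of 5 mice. WT CNTL replicate 3 and WT HFHS replicate 4 (diamonds) are the highest mouse of their group for all 8 genes, and the groups overlap in each panel.

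Cytl1 (ENSMUSG00000062329.4, protein coding, chromosome 5 from 37735519 to 37739820, plus strand of GRCm38) was the most abundant of the 8. Its scaled TPM in replicates 1 to 5 was 8.23, 12.6, 64.7, 12.9 and 7.70 in WT CNTL and 31.1, 13.3, 10.9, 10.5 and 7.76 in GPx4+/- CNTL. In WT HFHS it was 5.22, 23.3, 12.4, 64.4 and 22.5, and in GPx4+/- HFHS 4.39, 17.6, 10.8, 32.0 and 10.2. With carnosine, WT HFHS mice had 6.21, 16.3, 11.9, 6.32 and 4.99. WT CNTL replicate 3 and WT HFHS replicate 4 thus stood far above the other mice of their groups, while the carnosine group held no mouse above 16.3. The group means were 21.2 ± 24.4 (SD, n = 5), 14.7 ± 9.35 (SD, n = 5), 25.6 ± 23.0 (SD, n = 5), 15.0 ± 10.6 (SD, n = 5) and 9.16 ± 4.83 (SD, n = 5) in that order. In WT CNTL the SD was larger than the mean, and the 5 groups overlapped.

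Smoc1 (ENSMUSG00000021136.13, protein coding, chromosome 12 from 81026808 to 81186414, plus strand) was the least abundant, and 12 of 25 mice were under 1. Replicates 1 to 5 had 0.811, 0.586, 2.14, 0.776 and 1.23 scaled TPM in WT CNTL and 4.76, 1.43, 1.76, 0.918 and 0.510 in GPx4+/- CNTL. On HFHS the values were 0.559, 1.89, 1.85, 4.72 and 1.63 in WT and 0.432, 1.28, 0.959, 2.48 and 0.707 in GPx4+/-, and with carnosine 0.565, 1.15, 0.926, 0.686 and 1.02. Its highest mouse was GPx4+/- CNTL replicate 1, at about the level of WT HFHS replicate 4, and apart from these 2 mice no value exceeded 2.48. Of its mean level, 82.3% came from 1 protein-coding transcript and 17.0% from another.

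Angptl7 (ENSMUSG00000028989.3, protein coding, chromosome 4 from 148495183 to 148500460, minus strand) is listed with 1 transcript and lies within the Mtor gene on the opposite strand, and whether strand was used in the counting is not given in the sources used here. In WT CNTL it had 2.68, 4.22, 27.6, 3.48 and 1.55 scaled TPM and in GPx4+/- CNTL 6.86, 8.61, 0.843, 0.754 and 2.92. In WT HFHS the 5 mice had 1.79, 11.7, 2.89, 17.8 and 3.78, in GPx4+/- HFHS 2.70, 5.55, 0.868, 12.9 and 1.07, and in WT HFHS + Carnosine 1.67, 4.80, 1.99, 2.80 and 0.676. Between WT CNTL replicate 3, the highest, and the fifth carnosine mouse, the lowest, the level differed 40.8-fold.

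Wif1 (ENSMUSG00000020218.11, protein coding, chromosome 10 from 121033960 to 121100650, plus strand), the Wnt antagonist of the set, followed a partly different order of mice. Its scaled TPM was 0.818, 2.86, 6.07, 3.30 and 1.53 in WT CNTL and 4.46, 2.10, 6.35, 0.801 and 0.874 in GPx4+/- CNTL. On HFHS it was 1.17, 3.98, 2.79, 12.5 and 2.70 in WT, 2.92, 1.38, 2.90, 7.63 and 1.31 in GPx4+/- and 1.43, 8.06, 1.30, 0.924 and 0.907 in WT with carnosine. In GPx4+/- CNTL its highest mouse was replicate 3, in which Angptl7, Fmod, Comp and Chad were at most 1.19, and the second carnosine mouse was the second highest of all 25.

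Fmod (ENSMUSG00000041559.7, protein coding, chromosome 1 from 134037254 to 134048277, plus strand) had the widest range among the genes detected in every mouse, 166-fold. The WT CNTL mice had 1.39, 5.74, 16.2, 4.64 and 0.126 scaled TPM and the GPx4+/- CNTL mice 4.42, 4.05, 0.271, 0.147 and 3.04. The WT HFHS mice had 0.663, 7.41, 0.233, 20.9 and 1.27, the GPx4+/- HFHS mice 1.54, 3.56, 0.629, 9.17 and 0.523 and the carnosine mice 1.89, 4.57, 0.529, 0.206 and 0.608. WT CNTL and WT HFHS each held 1 of the 2 highest mice and also mice under 1, so their ranges covered each other.

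Comp (ENSMUSG00000031849.9, protein coding, chromosome 8 from 70373558 to 70382066, plus strand), a thrombospondin-family protein that binds collagen, ranged from 0.532 to 24.3 with a median of 4.96 in WT CNTL and from 1.05 to 9.49 with a median of 3.07 in GPx4+/- CNTL. In WT HFHS it ranged from 0.523 to 29.7 with a median of 2.47, in GPx4+/- HFHS from 1.23 to 13.4 with a median of 2.29, and in WT HFHS + Carnosine from 1.05 to 4.82 with a median of 1.38. The transcript of 2416 bases made up 88.0% of its mean level and one of 495 bases 11.8%.

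Chad (ENSMUSG00000039084.8, protein coding, chromosome 11 from 94565047 to 94569127, plus strand), a leucine-rich protein to which cartilage cells attach, was near 0 in many mice, with 11 of 25 under 1. Its scaled TPM was 1.97, 3.37, 18.9, 2.95 and 0.213 in WT CNTL, 3.16, 2.85, 0.0792, 0.110 and 1.73 in GPx4+/- CNTL and 0.144, 6.47, 0.142, 23.1 and 0.0534 in WT HFHS. In GPx4+/- HFHS it was 1.19, 4.29, 0.0570, 3.05 and 0.0255, and in WT HFHS + Carnosine 1.06, 1.75, 0.190, 0 and 0.474. The fourth carnosine mouse is listed at 0. In WT HFHS the mean of 5.98 came from replicates 2 and 4, since the other 3 mice had at most 0.144.

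Cilp (ENSMUSG00000042254.14, protein coding, chromosome 9 from 65265180 to 65280605, plus strand), a matrix protein that binds growth factors, was the most evenly expressed matrix member and was above 2 in every mouse. Its range was 2.99 to 15.7 with a median of 8.64 in WT CNTL, 2.05 to 9.49 with a median of 5.26 in GPx4+/- CNTL and 3.47 to 24.2 with a median of 5.88 in WT HFHS. In GPx4+/- HFHS it was 4.09 to 14.7 with a median of 9.23, and with carnosine 3.62 to 10.7 with a median of 7.46. With carnosine its highest mouse was the third, whereas the other 7 genes peaked in the second.

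RefSeq promoter windows (GRCm38.p6), each running from 250 bases before to 50 after a gene's start, were held for 6 of the 8 genes, Cytl1, Angptl7, Fmod, Chad, Wif1 and Cilp. The 4 windows below are those of Angptl7, Fmod and Chad, whose levels had a rho of 0.76 to 0.87 with each other over the 25 mice, and of Wif1, the Wnt antagonist, with letters in capitals where 1 of the searched motifs was found on either strand. The motifs were ACAATG and ACAAAG (Sox), CATCTG (E-box), CAGACA (Smad), GGAATG (Tead), CCAAT and TATAAA.
Angptl7 (chr4:148500413-148500712, minus strand): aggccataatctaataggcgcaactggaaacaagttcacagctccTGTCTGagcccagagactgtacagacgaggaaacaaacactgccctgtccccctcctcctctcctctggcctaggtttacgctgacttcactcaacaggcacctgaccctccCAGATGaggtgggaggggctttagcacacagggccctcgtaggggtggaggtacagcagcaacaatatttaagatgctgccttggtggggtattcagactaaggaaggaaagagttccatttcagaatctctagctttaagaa
Fmod (chr1:134037004-134037303, plus strand): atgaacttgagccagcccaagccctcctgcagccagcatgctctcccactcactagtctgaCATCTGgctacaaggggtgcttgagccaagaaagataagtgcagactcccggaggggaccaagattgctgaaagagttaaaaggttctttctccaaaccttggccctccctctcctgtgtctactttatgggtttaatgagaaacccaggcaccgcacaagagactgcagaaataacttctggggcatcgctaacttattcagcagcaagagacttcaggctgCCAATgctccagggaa
Chad (chr11:94564797-94565096, plus strand): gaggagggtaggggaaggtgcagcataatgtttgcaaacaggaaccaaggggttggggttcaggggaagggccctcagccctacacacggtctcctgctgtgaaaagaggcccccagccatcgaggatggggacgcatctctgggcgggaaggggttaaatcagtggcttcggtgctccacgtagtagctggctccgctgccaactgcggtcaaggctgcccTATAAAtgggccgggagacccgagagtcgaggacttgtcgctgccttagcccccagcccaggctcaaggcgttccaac
Wif1 (chr10:121033754-121034053, plus strand): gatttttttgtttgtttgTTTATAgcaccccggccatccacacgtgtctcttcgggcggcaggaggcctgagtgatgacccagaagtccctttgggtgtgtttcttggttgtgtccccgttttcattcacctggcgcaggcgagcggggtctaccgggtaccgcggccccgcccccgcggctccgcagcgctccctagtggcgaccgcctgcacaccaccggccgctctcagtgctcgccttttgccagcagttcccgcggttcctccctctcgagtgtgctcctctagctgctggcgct
The CATCTG letters were in the Angptl7 window (reverse complement) and the Fmod window, and in 17.2% of all 32851 windows. CAGACA was in the Angptl7 window alone (reverse complement, 21.0% of all windows) and CCAAT in the Fmod window alone (37.4%). TATAAA began 28 bases before the start of Chad and, as its reverse complement, 232 bases before the start of Wif1 (13.6%). Neither Sox motif (12.6% and 18.7%) and no GGAATG (14.7%) was in any of the 6 windows, and the Cytl1 and Cilp windows held 0 of the 7 motifs. No motif was thus shared by more than 2 of the 6 windows, and Fmod and Chad, whose levels followed each other closely, shared none.

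Between mice of the same group the 8 genes varied far more than a typical gene. The SD of log2(scaled TPM + 0.5) within groups was 0.66 for Smoc1, 0.83 for Cilp, 1.02 for Cytl1, 1.01 for Wif1, 1.27 for Angptl7, 1.49 for Comp, 1.59 for Fmod and 1.66 for Chad. The median over the 8 was 1.14, against 0.15 over all 11979 genes, and each of the 8 lay above at least 97.9% of all genes. Because the genes were chosen partly for high values in single mice, this spread is a description and not a test. The share of the variance that lay between the 5 groups was 7.99% (Fmod) to 18.8% (Smoc1), with a median of 11.9%, against 19.9% over all genes.

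**Figure D2:**
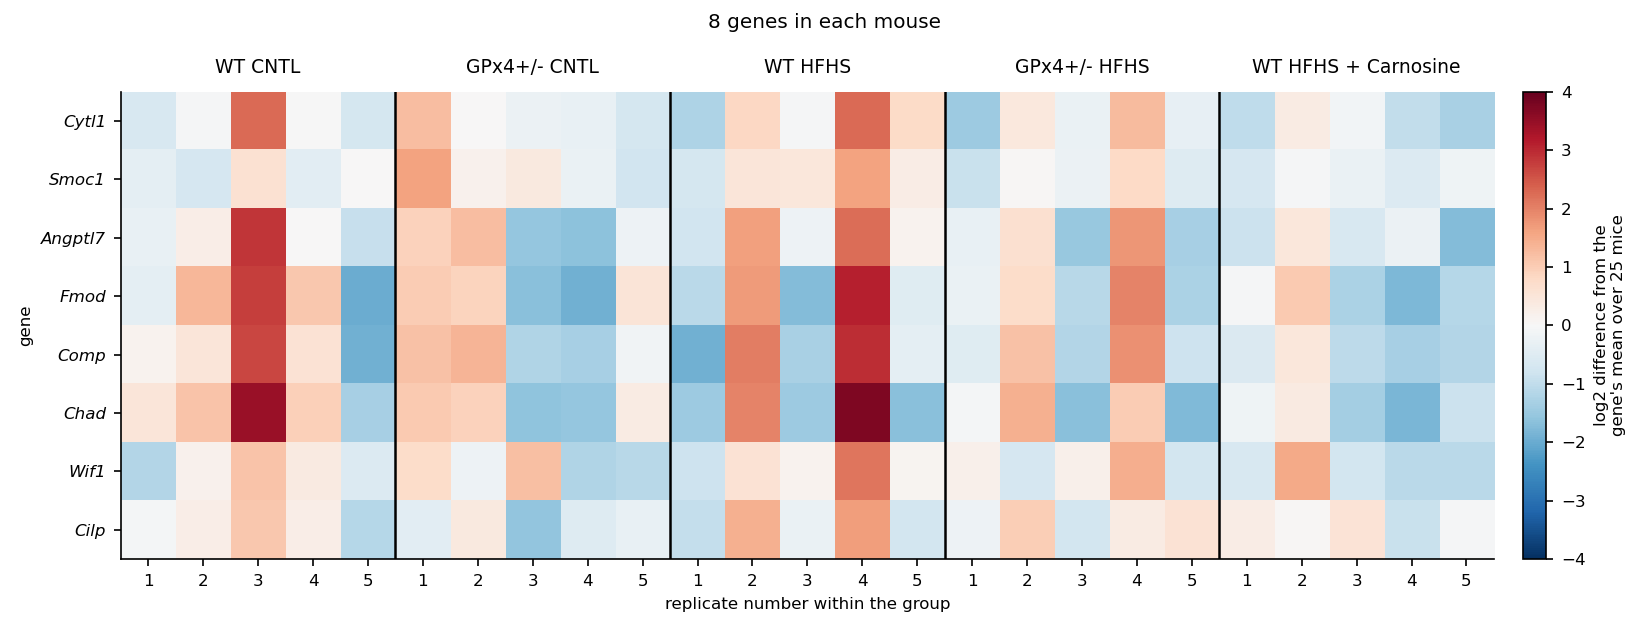
Difference of each gene from its own mean over the 25 mice, in log2(scaled TPM + 0.5), with 1 column per mouse. WT CNTL replicate 3 and WT HFHS replicate 4 are red in all 8 rows, and Smoc1 has the lowest median rho with the other 7 genes (0.47).

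The same mice were high for most of the genes. WT HFHS replicate 4 and WT CNTL replicate 3 were the highest of their group for 8 of 8 genes, GPx4+/- HFHS replicate 4 for 6 and WT HFHS + Carnosine replicate 2 for 7. In GPx4+/- CNTL the highest mouse was replicate 1 for 4 genes, replicate 2 for 3 and replicate 3 for 1. A score, the mean over the 8 genes of their standardised log2 values, was 2.15 in WT HFHS replicate 4, 1.73 in WT CNTL replicate 3, 1.13 in GPx4+/- HFHS replicate 4, 1.13 in WT HFHS replicate 2 and 0.84 in GPx4+/- CNTL replicate 1. WT HFHS replicate 2 was high without being the highest of its group, being among the 5 highest of all 25 mice for 7 genes. The lowest scores belonged to WT HFHS replicate 1 (-0.99), to WT HFHS + Carnosine replicate 4 (-0.93) and to GPx4+/- CNTL replicate 4 (-0.89), so both ends of the series lay within WT HFHS. Group medians of the score were 0.20 (WT) and -0.38 (GPx4+/-) on CNTL, -0.13 and -0.45 on HFHS and -0.44 with carnosine, and all groups overlapped.

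Fmod, Comp, Chad and Angptl7 followed each other most closely. Spearman's rho over the 25 mice was 0.92 for Fmod and Comp, 0.87 for Fmod and Chad, 0.87 for Angptl7 and Comp and 0.85 for Comp and Chad. Cytl1 lay closest to Angptl7 (0.81) and to Smoc1 (0.79). The loosest pairs were Smoc1 and Cilp (0.25) and Wif1 and Cilp (0.26). The median over the 28 pairs was 0.63 in the 25 mice, 0.59 without WT HFHS replicate 4 and 0.54 without that mouse and WT CNTL replicate 3. When the 5 mice with a high atrial sum were also set aside, the 19 that remained gave a median of 0.37, with 26 of 28 pairs positive, 0.88 for Fmod and Comp and -0.21 for Smoc1 and Fmod. Both genes of a pair were read from the same library of the same mouse, and the genes were picked for high values in shared mice, so these are descriptions without a p.

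The atrial markers moved with some of this pattern. The 5 mice with an atrial sum over 500 were all among the 8 mice with the highest score, the other 3 being WT HFHS replicates 4 and 2 and GPx4+/- HFHS replicate 2. The score and the atrial sum had a rho of 0.42 over the 25 mice and 0.03 over the 20 mice below 500. Nppa was the largest part of this sum (mean 396 scaled TPM, rho 0.33), ahead of Myl7 (mean 193) and Myl4 (mean 141). Over the 25 mice Myl7 (rho 0.73), Myl4 (0.71) and Sln (0.66) followed the score more closely than Bmp10 (0.37) did. Chad had the highest rho of the 8 with the atrial sum (0.58 over 25 mice and 0.45 over 20), and Cilp the lowest (0.16 and -0.01). In WT CNTL replicate 3, Myl7 was 1687 and Myl4 1102 scaled TPM, whereas in WT HFHS replicate 4, where the 8 genes were also high, Myl7 was 9.37 and Myl4 12.7. The smooth muscle sum, highest in WT HFHS replicate 4, was 107 in WT CNTL replicate 3, within the range of the other mice. The part of atrial or vascular tissue in the levels of the 8 genes was not tested.

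Markers of other cell types followed the score to different degrees. Between the score and the summed markers, rho over the 25 mice was 0.61 for macrophages, 0.53 for fibroblasts and 0.49 for endocardium and veins. It was 0.21 for smooth muscle, -0.25 for endothelium and -0.40 for ventricular muscle. Over the 20 mice of low atrial sum it was 0.39 for macrophages, 0.29 for fibroblasts and 0.29 for endocardium and veins. Smooth muscle had 0.32 and ventricular muscle -0.34 in these 20. Over the 19 mice left without WT HFHS replicate 4, these 5 values were 0.29, 0.17, 0.18, 0.21 and -0.24. Among the 8 genes over the 25 mice, Smoc1 lay closest to the endocardial and venous markers (0.71) and Cilp to those of macrophages (0.69). Smoc1, Cytl1 and Wif1 lay closest to those of fibroblasts (0.65, 0.65 and 0.64). Over the 20 mice of low atrial sum, and over the 19 left without WT HFHS replicate 4, rho with the fibroblast sum was 0.55 and 0.48 for Smoc1, 0.48 and 0.40 for Cytl1 and 0.44 and 0.34 for Wif1. For Cilp, Comp, Angptl7, Fmod and Chad it was 0.27, 0.08, 0.07, 0.04 and -0.23 over the 19 mice. In the same 20 and 19 mice Smoc1 had 0.62 and 0.56 with the endocardial and venous sum, and Cilp 0.74 and 0.70 with the macrophage sum. With the smooth muscle sum, rho over the 25, 20 and 19 mice was 0.40, 0.61 and 0.54 for Cytl1, 0.50, 0.60 and 0.53 for Wif1 and 0.28, 0.45 and 0.36 for Smoc1. The remaining marker sums had a rho of 0.46 (melanocytes), 0.44 (activated fibroblasts), 0.36 (Schwann cells), 0.25 (mesothelium and epicardium), 0.00 (hepatocytes), -0.09 (skeletal muscle) and -0.18 (adipocytes). The adipocyte sum was almost wholly Fabp4 (mean 630.4 scaled TPM, rho -0.17), whereas the other 4 adipocyte markers, each with a mean under 1, had a rho of 0.37 to 0.46. WT CNTL replicate 3 was among the 2 highest mice for 4 of 5 atrial, 4 of 5 melanocyte and 4 of 5 adipocyte markers, at low levels for the last 2 lists (3.34 scaled TPM for Mlana and 2.98 for Adipoq). WT HFHS replicate 4 was among the 2 highest for 0 markers of these 3 lists and was the highest mouse for 6 of 6 smooth muscle markers. It was also among the 2 highest for 5 of 7 fibroblast, 3 of 5 activated fibroblast, 3 of 5 macrophage and 2 of 5 endocardial and venous markers, with the highest level of Postn (59.5 scaled TPM) and of Vwf (41.7).

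**Figure D3:**
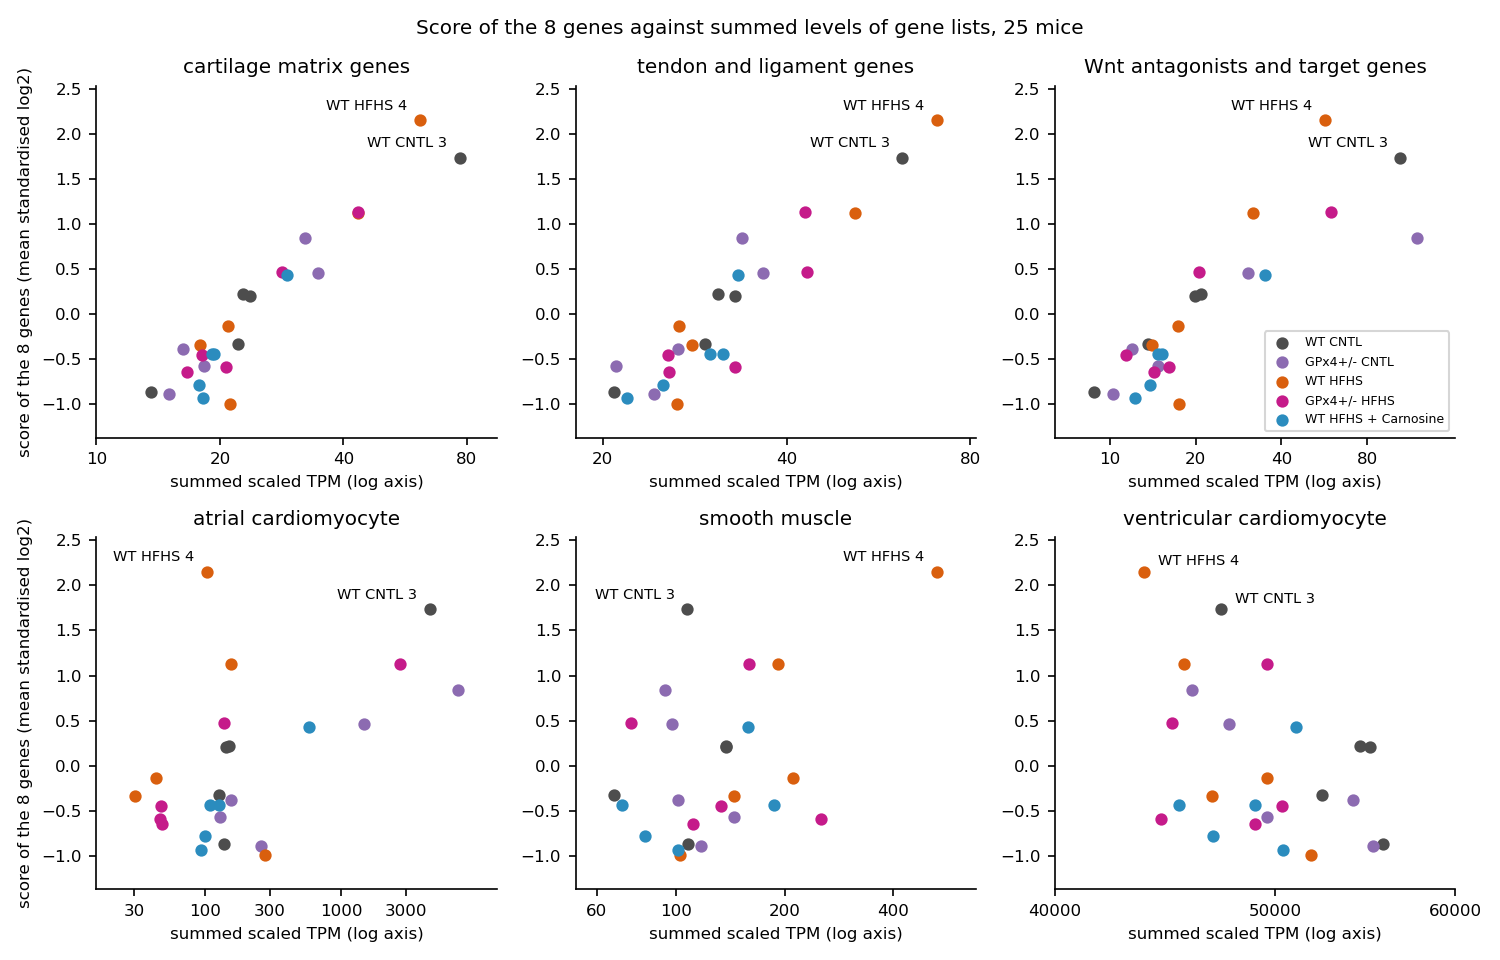
Score of the 8 genes (mean standardised log2 value) in each of 25 mice against the summed scaled TPM of 3 pathway lists and 3 cell type marker lists on log axes, coloured by group. Over the 25 mice the score rises with the cartilage, tendon and Wnt list sums (rho 0.85, 0.89 and 0.80). Without the mice of high atrial sum and WT HFHS replicate 4, rho is 0.66, 0.75 and 0.59. WT HFHS replicate 4 has a low atrial sum and the highest smooth muscle sum.

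Other genes of dense connective tissue were high in the same mice. The summed level of 10 tendon and ligament genes had a rho of 0.89 with the score. It was 0.79 and 0.75 over the 20 mice of low atrial sum and the 19 left without WT HFHS replicate 4. Over those 19, the 8 genes ran from 0.05 (Smoc1) to 0.88 (Cilp) with this sum. Over the 25 mice 4 of the 6 tested exceeded 0.6, a value exceeded by 1.48% of the 11971 genes tested besides the 8. The 8 genes were picked for high values in shared mice, and the lists were chosen with earlier results known, so these shares are descriptions. The most abundant tendon and ligament genes were Thbs2, with a rho of 0.16, Fibin (0.73) and Col14a1 (0.72), so the abundant Thbs2 did not share the pattern. In the cartilage list (21 genes, rho of the sum 0.85, or 0.71 and 0.66 over those 20 and 19 mice) 3 of 5 tested genes exceeded 0.6. Sox9, of the transcription factor list and under the filter, had 0.83, against 0.26 for Sox5, -0.03 for Sox6 and 0.10 for Scx. Of the 11 genes of that list 3 exceeded 0.6 and 4 were below 0, with a median of 0.26. The 3 most abundant cartilage genes were Prg4, which encodes the lubricant of joint surfaces (0.80), Matn2 (0.49) and Clec3a, a cartilage lectin (0.88). Prg4 was 29.3 scaled TPM in WT CNTL replicate 3 and 25.0 in WT HFHS replicate 4, the 2 highest values of 25, and 3.67 in the lowest mouse.

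Among 11 small leucine-rich proteoglycans, the family of Fmod, 3 of 8 tested exceeded 0.6. The sum of this family had a rho of 0.74, or 0.53 and 0.45 over the 20 and 19 mice named above. Its abundant members Dcn (0.73) and Bgn (0.70) followed the score more closely than Ogn (0.28). Their range was far narrower than that of Fmod, 209.8 to 417 scaled TPM for Dcn. Of 14 Wnt antagonists and targets, 3 of 6 tested exceeded 0.6, and the sum had a rho of 0.80, or 0.65 and 0.59 over the 20 and 19 mice. The most abundant, Dkk3 (0.83), Sfrp1 (0.51) and Frzb (0.74), all belong to families of secreted antagonists. Axin2, a target of the canonical Wnt pathway, had 0.45. In the BMP list, in which Id1 (0.07), Id3 (0.49) and Smoc2 (0.15) were the most abundant, 1 of 8 tested genes exceeded 0.6, and Smoc2, which is related to Smoc1, ranged from 21.9 to 47.1. Of the other angiopoietin-like genes, 0 of 5 tested did, Angptl2 (0.22) and Angptl4 (0.19) being the most abundant. Of the valve and skeletal transcription factors 1 of 6 tested did, Tbx20 (0.63), whereas the abundant Gata4 had -0.26 and Nfatc1 -0.0015.

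Among the 10 genes whose pattern over the 25 mice was most like the score were Clec3a, Htra4, Tgif1, Scara3, Olfml1, Abi3bp, Anxa1, Dkk3 and Ccdc80, with a rho from 0.88 down to 0.82. Clec3a had 0.774, 2.11, 17.4, 2.45 and 0 scaled TPM in WT CNTL, 0, 2.64, 0, 5.72 and 0 in WT HFHS and 0.871, 1.23, 0, 0 and 0 in WT HFHS + Carnosine, and it is listed at 0 in 11 of 25 mice. Dkk3, a secreted protein of the Dickkopf family, was 95.4, 18.0, 0.451, 0.889 and 2.76 in GPx4+/- CNTL and 3.12, 7.01, 71.1, 6.71 and 0.534 in WT CNTL. Its top mouse, GPx4+/- CNTL replicate 1, was also the one with the highest atrial sum and the highest Smoc1. Ccdc80, a matrix protein, ranged only from 19.2 to 53.0, although its rho with the score was 0.82. Without WT HFHS replicate 4, all 10 remained the top 10, and with Pearson correlation of values centred within groups, 4 of the 10 did.

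The effect of HFHS diet in GPx4+/- mice was tested between groups that hold neither WT HFHS replicate 4 nor WT CNTL replicate 3. The spread behind its standard errors and p-values came from all 20 mice without carnosine, these 2 among them, and in a fit of the 2 groups alone the standard error of Cilp was 0.37 (adjusted p = 0.392 by limma) and again none of the 8 was called. In the fit of 20 mice none of the 8 passed an adjusted p under 0.05 by limma, and none had an unadjusted p under 0.05 (smallest unadjusted p 0.195 by limma, for Cilp). Over all genes, 3.17% were called in this comparison. Cilp had the largest difference, from 5.47 ± 2.66 (SD, n = 5) scaled TPM on CNTL to 9.03 ± 4.14 (SD, n = 5) on HFHS, or 0.68 in log2 units (standard error 0.51, adjusted p = 0.520 by limma). Smoc1 had the lowest, -0.38 (standard error 0.42, adjusted p = 0.694 by limma). In all, 5 of the 8 values were above 0, and their median was 0.12, against 0.0052 over all genes. Cytl1 and Chad were below 0 on this log scale (-0.08 and -0.04) while their mean scaled TPM was higher on HFHS. The 95% interval was -1.27 to 0.50 for Smoc1 and -2.21 to 2.13 for Chad. With 5 mice against 5, a 2-fold difference in either direction lay within the interval for Cytl1, Angptl7, Fmod, Comp and Chad. The p-values measure the spread between individual mice. Without GPx4+/- HFHS replicate 4 the median of the 8 was -0.32. Without the mice of high atrial sum, which leaves 3 CNTL and 4 HFHS mice, it was 0.46 and none of the 8 was called. The log2 fold change in this comparison was above 0 for 6 of 6 smooth muscle markers (median 0.31), 4 of 5 endocardial and venous (0.08), 7 of 7 fibroblast (0.20), 5 of 5 macrophage (0.09) and 0 of 5 atrial (-1.45), with 0 called by limma.

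The genotype comparisons hold WT CNTL replicate 3 or WT HFHS replicate 4, mice known to be high when the genes were chosen, so their values are descriptions without p-values for the 8 genes. On CNTL diet, where 0.0501% of all genes were called, Smoc1 was at 1.88 ± 1.68 (SD, n = 5) in GPx4+/- and 1.11 ± 0.622 (SD, n = 5) in WT, a log2 fold change of 0.40 (standard error 0.42). The other 7 had values below 0 on this scale, down to -1.11 for Chad (standard error 1.04), although the mean scaled TPM of Wif1 was 2.92 in GPx4+/- and 2.91 in WT. The median of the 8 was -0.49, against -0.0067 over all genes, and it rested on single WT mice, being 0.07 without replicate 3 and -0.92 without replicate 5. Without replicate 3, Cytl1 went from -0.17 to 0.35, Comp from -0.42 to 0.15 and Wif1 from -0.10 to 0.19. The atrial sum, 4512 in that mouse, was 7246 in the first GPx4+/- CNTL mouse, so high atrial levels occurred in both groups. Values above 0 were found for 4 of 6 smooth muscle markers (median 0.00), 5 of 5 endocardial and venous (0.38), 7 of 7 fibroblast (0.12), 5 of 5 macrophage (0.20) and 5 of 5 atrial (1.05). Hepatocyte markers were above 0 for 4 of 4 (median 1.56). Their sum was 984 in GPx4+/- CNTL replicate 2, against at most 7.97 in the rest of that group and 3.32 in WT CNTL.

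On HFHS diet the GPx4+/- mice had lower mean scaled TPM than WT for all 8 genes, with log2 fold changes between -0.75 (Angptl7) and -0.04 (Cilp) and a median of -0.38, against 0.0014 over all genes. In this comparison 0.0501% of all genes were called. Leaving out WT HFHS replicate 4 reversed this difference for 5 genes, and for some of them leaving out another single mouse did so too. Without WT HFHS replicate 4 the median was 0.21 (it was -0.78 without WT HFHS replicate 1). In that fit without replicate 4, Fmod, Comp, Chad, Wif1 and Cilp had values above 0 (0.41, 0.51, 0.45, 0.09 and 0.32). Cytl1, Smoc1 and Angptl7 stayed below 0 (-0.15, -0.29 and -0.34). With the mice of high atrial sum left out as well, the median was -0.16, and Fmod (-0.08) and Wif1 (-0.25) were below 0 again. With all mice, values below 0 were also found for 6 of 6 smooth muscle markers (median -0.59), 5 of 5 endocardial and venous (-0.17), 5 of 7 fibroblast (-0.12), 1 of 5 macrophage (0.05) and 2 of 5 atrial (0.24). Hepatocyte markers were above 0 for 4 of 4 (median 1.71). Their sum was 67.1 and 36.8 in GPx4+/- HFHS replicates 1 and 3, and at most 1.26 in WT HFHS. The part of these tissues was not tested.

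**Figure D4:**
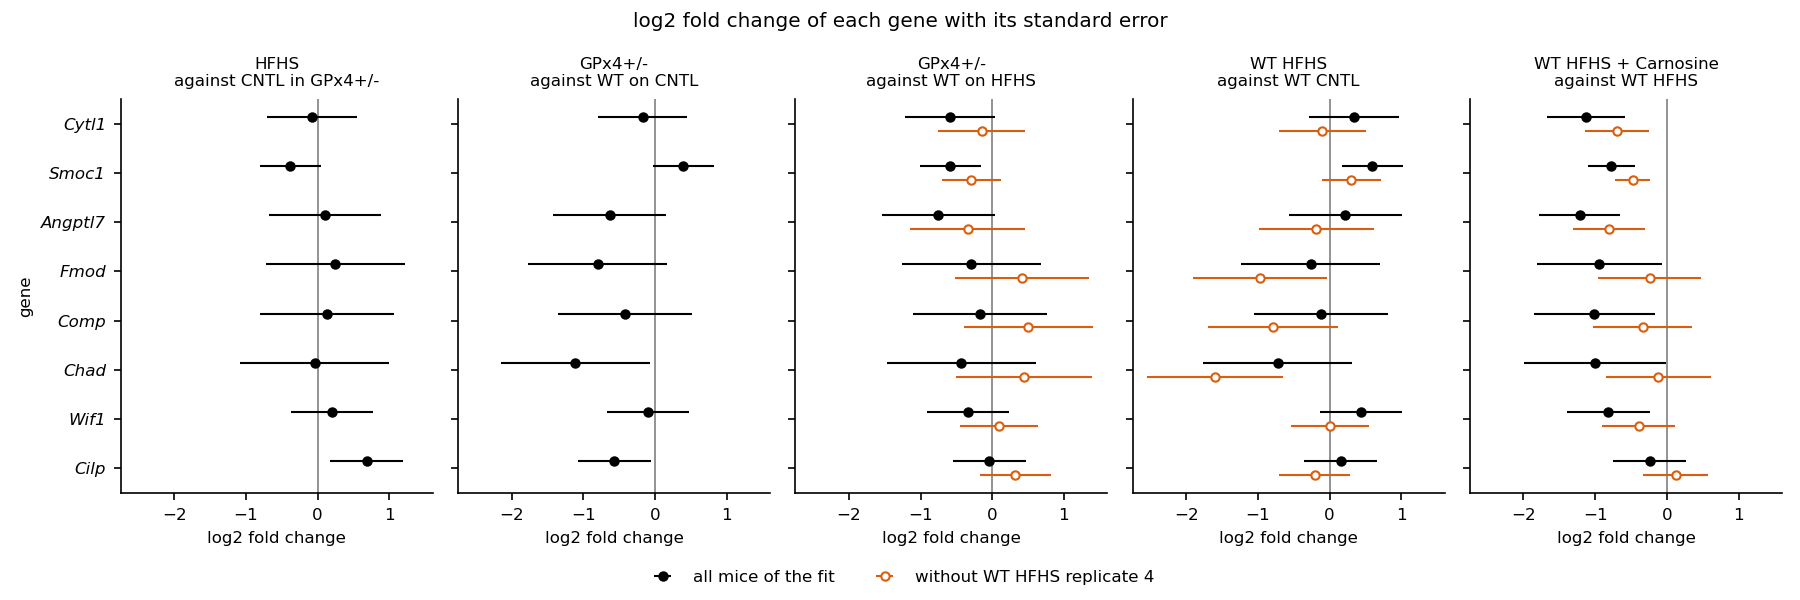
log2 fold change of each gene on the scale log2(scaled TPM + 0.5), with its standard error, in 5 comparisons, from all mice of the fit (filled) and without WT HFHS replicate 4 (open, in the 3 comparisons that hold this mouse). In the carnosine comparison all 8 filled points lie below 0, and the open points lie closer to it.

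The carnosine comparison, from which the set was put forward, and the diet comparison in WT mice, which shares its WT HFHS mice, are given as descriptions without p-values for the 8 genes. For HFHS against CNTL in WT mice, where 0.968% of all genes were called, the log2 fold changes ran from -0.72 (Chad) to 0.60 (Smoc1), with 5 of 8 above 0 and a median of 0.19. For 4 genes the direction depended on the scale, since the mean scaled TPM of Chad, Fmod and Comp was higher and that of Angptl7 lower on HFHS. The median was -0.20 without WT HFHS replicate 4, 0.59 without WT CNTL replicate 3 and 0.17 without both. Smoc1 stayed above 0 without WT HFHS replicate 4 (0.30) and without WT CNTL replicate 3 (0.79), whereas Angptl7, Cytl1 and Cilp went below 0 without the former (-0.18, -0.10 and -0.21). With all mice, values above 0 were found for 6 of 6 smooth muscle markers (median 0.88), 5 of 5 endocardial and venous (0.52), 7 of 7 fibroblast (0.40), 5 of 5 macrophage (0.15) and 0 of 5 atrial (-0.43), and their part in the levels of the 8 genes was not tested.

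With carnosine, all 8 genes had lower means than in WT HFHS mice without it, the contrast from which the set was put forward. Angptl7 was at 2.39 ± 1.55 (SD, n = 5) with and 7.60 ± 6.93 (SD, n = 5) without carnosine, which is -1.21 in log2 units (standard error 0.57). Cytl1 had -1.13 (standard error 0.55) and Smoc1 -0.77 (standard error 0.33), with 0.871 ± 0.242 (SD, n = 5) against 2.13 ± 1.55 (SD, n = 5) scaled TPM. The matrix genes had -1.01 (Comp), -0.999 (Chad), -0.94 (Fmod) and -0.24 (Cilp), and Wif1 had -0.82. The median of the 8 was -0.97, against 0.0039 over all genes, of which 0% were called and 507 had an unadjusted p under 0.05 by limma.

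The size of this difference depended on WT HFHS replicate 4. Without that mouse the median was -0.37, Cytl1 had -0.69, Smoc1 -0.48 and Angptl7 -0.81. Fmod, Comp, Chad and Wif1 then lay between -0.39 and -0.12, and Cilp was at 0.12. When the carnosine mouse of high atrial sum, replicate 2, was left out as well, the median was -0.65, Angptl7 had -1.07, Wif1 -0.87 and Fmod -0.66. The smooth muscle sum ranged from 102 to 531 in WT HFHS mice and from 70.6 to 187 with carnosine. The endocardial and venous sum ranged from 54.4 to 89.8 in WT HFHS mice, with replicate 4 the highest, and from 47.5 to 61.9 with carnosine. For fibroblasts the ranges were 805 to 1361 and 741 to 1218, and for macrophages 59.2 to 90.1 and 62.6 to 84.1. The median of the cartilage list sum was 21.1 without and 19.1 with carnosine, and that of the tendon list sum 28.0 and 29.98. Gene by gene, with WT HFHS replicate 4 included, the log2 fold change was below 0 for 5 of 5 cartilage genes tested (median -0.58), 6 of 6 tendon genes (-0.34), 6 of 6 Wnt genes (-0.21), 8 of 8 BMP genes (-0.21), 7 of 8 small leucine-rich proteoglycans (-0.21), 4 of 6 valve and skeletal transcription factors (-0.03) and 4 of 5 angiopoietin-like genes (-0.0054), with 0 called by limma. The part of these tissues in the carnosine difference was not tested.

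Of the pathway lists, only the BMP list held a called gene in any of the 5 comparisons, 1 of 8 tested for HFHS in GPx4+/- mice, where 3.17% of all genes were called. Smoc2, a relative of Smoc1, was higher on HFHS in GPx4+/- mice by 0.46 on the log2 scale (standard error 0.11, adjusted p = 0.0231 by limma), while Smoc1 had -0.38 in the same comparison. The call for Smoc2 was kept in 22 of 30 alternative fits and lost in 8, with an adjusted p between 0.00737 and 0.117 by limma and a log2 fold change between 0.34 and 0.55 over the 30. It was lost without GPx4+/- CNTL replicate 1 (adjusted p = 0.0590 by limma), GPx4+/- CNTL replicate 3 (0.0644) or GPx4+/- HFHS replicate 5 (0.0717), and without the mice of high atrial sum, with or without WT HFHS replicate 4 (log2 fold change 0.37 in both). It was also lost with TPM as deposited (adjusted p = 0.115 by limma), in a fit of only the 2 groups compared (0.117) and with no filter on low values (0.0925). In this comparison the other lists gave 0 called of 6 valve and skeletal transcription factors, 5 cartilage matrix genes, 8 small leucine-rich proteoglycans, 6 tendon and ligament genes, 6 Wnt genes and 5 angiopoietin-like genes tested, with medians between -0.17 and 0.24.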

How the data were processed

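By the labels, left ventricular mRNA of 25 mice was sequenced as 150-base paired reads, and the authors deposited TPM per transcript from kallisto 0.43.1 (sleuth 0.30.0, GRCm38, both per the submitters' processing notes). TPM sum to 1000000 in every library, so the depth of each library cannot be read from them. Columns were assigned to mice by the library name in the header, which matches the labels; the column positions that the labels also give disagree with these names. Of 119215 transcripts, 116772 were matched to GENCODE M21 and summed to 35969 genes. Gene sums were divided by median-ratio factors (0.866 to 1.16, from 15018 genes), and log2(scaled TPM + 0.5) of 11979 genes with a mean of at least 1 was fitted with limma 3.58.1 in R 4.3.3 with a mean-variance trend. The 20 mice without carnosine shared 1 fit and the 10 WT HFHS mice with and without carnosine another. P-values were adjusted by Benjamini-Hochberg over all genes tested, with a threshold of 0.05. Only HFHS against CNTL in GPx4+/- is given with p-values for the 8 genes, since the other comparisons hold mice known to be high when the genes were chosen. Fold changes on this scale understate those of low genes. The study's own test used counts, which are not used here. The procedure was tested on simulated data.

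The 8 genes and all gene lists were chosen with earlier results of these data known. Named besides them are the 10 genes with the highest rho to the score, the 3 most abundant and any called genes of each pathway list, and genes that bear on the label or on a high mouse. Some genes that this rule names are not reported here. The atrial limit of 500 scaled TPM was chosen after the data were seen. Equal replicate numbers mark different animals, and same-numbered mice did not deviate together (correlations from -0.34 to 0.23). Alternatives were the pseudocount, the filter, the scaling, a replicate block, fitting 2 groups alone and leaving out mice.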

Additional observations from a re-analysis of the deposited data

Results flagged for a closer look

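In 40 combinations of gene and group, the highest or lowest of the 5 mice was compared with the nearest other mouse on the scale log2(scaled TPM + 0.5), and chance sets about 1 in 20 such combinations apart. Of the 40, 2 stood apart, about that share. The genes were chosen partly for high values in single mice, so this is a description and not a test. Cytl1 in WT CNTL replicate 3 was high, at 64.7 scaled TPM, with a gap to the next mouse of 0.763 of the group's range on the log2 scale. Wif1 in WT HFHS + Carnosine replicate 2 was high, at 8.06 scaled TPM, with a gap of 0.825 of the range on the log2 scale. Both mice had an atrial marker sum over 500 scaled TPM, and its part in these values was not tested.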

How the results depend on the processing

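No alternative brought any of the 8 genes past the threshold for HFHS against CNTL in GPx4+/- (lowest adjusted p 0.374 by limma, for Cilp). Of 708 alternative values of the 24 log2 fold changes in this and the 2 genotype comparisons, 57 had the opposite sign, and 14 of the 24 were affected, 41 times by leaving out 1 mouse. Why was not tested. The spread between mice limits these values, with the largest standard errors for Chad, Fmod and Comp. Smoc1, Chad and Fmod were under 1 scaled TPM in 10 to 12 mice. A replicate block left the median log2 fold changes at 0.12, -0.49 and -0.38 (HFHS in GPx4+/-, genotype on CNTL, genotype on HFHS) and changed no call of the 8 genes. Of the 10 genes most like the score, 4 remained with centred Pearson correlation.

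For HFHS against CNTL in GPx4+/-, Chad was 0.079 after quantile normalization. Without the mice of high atrial sum, with or without WT HFHS replicate 4, Cytl1 was 0.0041 and Chad 0.43. Leaving out 1 mouse gave -0.41 to 0.27 for Cytl1, -0.38 to 0.47 for Angptl7, -0.25 to 0.56 for Fmod, -0.30 to 0.48 for Comp, -0.45 to 0.35 for Chad and -0.13 to 0.53 for Wif1.

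For GPx4+/- against WT on CNTL, leaving out WT HFHS replicate 4 and WT CNTL replicate 3 together gave 0.35 for Cytl1, 0.15 for Comp and 0.19 for Wif1. Leaving out 1 mouse gave -0.48 to 0.35 for Cytl1, -0.99 to 0.15 for Comp and -0.43 to 0.19 for Wif1.

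For GPx4+/- against WT on HFHS, leaving out the same 2 mice gave 0.41 for Fmod, 0.51 for Comp, 0.45 for Chad, 0.092 for Wif1 and 0.32 for Cilp. Without the mice of high atrial sum and WT HFHS replicate 4, Comp was 0.074, Chad 0.14 and Cilp 0.28. Leaving out 1 mouse gave -0.80 to 0.41 for Fmod, -0.72 to 0.51 for Comp, -0.91 to 0.45 for Chad, -0.67 to 0.092 for Wif1 and -0.34 to 0.32 for Cilp.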
